A study of Drosophila melanogaster with 2 samples.

Results

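The genes described here are 9 protein-coding genes of Drosophila chromosome 4 that act in development: the transcription factor genes eyeless (ey), twin of eyeless (toy), shaven (sv), Zn finger homeodomain 2 (zfh2) and pangolin (pan), and the axon guidance genes Eph, Ephrin, PlexA and PlexB. They were chosen by name, with earlier results of these data known, and are 9 of the 80 protein-coding genes of chromosome 4 and of the 13945 on the major chromosomes. At each of them the peaks of the CG30020 protein were collected, where the summit lay within 500 bp of a transcription start site (TSS), inside the gene, or up to 5 kb outside it. This gave 35 summits in the authors' reproducible peak list, which is 17.9% of the 195 summits of that list on chromosome 4. Only 8 of the 35 lay within 500 bp of a TSS of these genes. Another 22 lay upstream, 3 downstream, 1 in an exon and 1 in an intron. Many of those outside the genes were nearer to the start of another gene, as given below. The share of chromosome 4 that this search covered was not taken.

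Peaks came from chromatin immunoprecipitation and sequencing with an antibody against GFP, in 1 transgenic line that carried CG30020 with GFP at its C terminus. The material was whole embryos of both sexes, pooled, aged 0 to 24 h, so a peak does not say in which cells or at which stage the protein was there. There was 1 group with 2 biological replicates, numbered 2 and 3, and hence no comparison between conditions and no p-value. Each replicate and the pooled reads had a relaxed list of 30000 peaks, and another list held the 5048 peaks that passed an irreproducible discovery rate (IDR) threshold. Sequencing depth is unknown from these lists. The scale of the deposited signal is not stated. Strength is therefore written as times the median signal of the IDR peaks (341 on the deposited scale), and in a replicate as times the median of that replicate's own peaks at IDR summits. Coordinates are on dm6, and gene models are those of Ensembl release 115.

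Chromosome 4 is the small dot chromosome of the fly, whose genes lie in a setting rich in repeats and heterochromatin proteins yet are transcribed. The products of ey and toy are paired-box (Pax) factors at the top of the retinal determination network, with toy acting above ey, and sv encodes a Pax factor of eye cone cells and sensory bristles. The zfh2 product is a large zinc finger homeodomain protein that works in wing, leg and nervous system, and pan encodes the TCF factor that takes Wingless signals to target genes together with Armadillo. Ephrin is a membrane-bound ligand and Eph its receptor tyrosine kinase, while PlexA and PlexB are the receptors of semaphorins, and all 4 guide growing axons.

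The 2 kinds of genes differed in what they carried at their start sites. An IDR summit lay within 500 bp of a TSS, and the gene is then called bound, in 4 of the 4 axon guidance genes and in 1 of the 5 transcription factor genes (pan), which is 5 of 9 in all. The background was 80.3% of the other 71 protein-coding genes of chromosome 4 and 30.7% of all 13945 protein-coding genes. The bound share of these 9 genes was thus below that of their chromosome and above that of the genome, in a set too small for a statement beyond the count. With the 5048 strongest peaks of replicate 2 alone the same 5 genes were bound, where the background was 80.3% of the other chromosome 4 genes and 29.8% of all. With those of replicate 3 alone zfh2 was added, which made 6 of 9, against 81.7% and 30.8%.

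The bases just upstream of the start sites are shown for the 4 bound axon guidance genes. Beside them are toy, zfh2 and sv, 3 of the 4 genes without an IDR summit at a promoter. The other such gene, ey, and the bound gene pan are not shown here. The 3 shown do not stand for ey, whose start sites had 65.2%, 43.2% and 67.6% A and T in the 250 bp upstream. Each is written 5' to 3' on the gene's own strand, ends at the base before the TSS and comes from the RefSeq genome sequence (Release 6, the sequence of dm6). Capitals mark CGATA and GAGAG on either strand (as TATCG and CTCTC on the other), with TATCGATA, the DNA replication-related element, which holds an overlapping copy of CGATA on each strand. Which motifs to mark was decided after the data were seen. The windows are Eph at chr4:610434-610683 on the plus strand, PlexA at chr4:1027102-1027351 on the minus strand, PlexB at chr4:43779-44028 on the minus strand and Ephrin at chr4:571555-571754 on the plus strand, the last cut to 200 bp where an exon of the neighbouring gene ND-49 begins. Then follow toy at chr4:989475-989724, zfh2 at chr4:501560-501809 and the first TSS of sv at chr4:1088548-1088797, all on the plus strand.
Eph: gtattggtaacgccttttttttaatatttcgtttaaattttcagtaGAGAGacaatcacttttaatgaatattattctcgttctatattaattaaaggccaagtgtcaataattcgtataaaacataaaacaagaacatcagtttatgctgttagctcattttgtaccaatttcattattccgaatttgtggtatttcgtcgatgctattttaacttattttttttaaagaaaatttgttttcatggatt
PlexA: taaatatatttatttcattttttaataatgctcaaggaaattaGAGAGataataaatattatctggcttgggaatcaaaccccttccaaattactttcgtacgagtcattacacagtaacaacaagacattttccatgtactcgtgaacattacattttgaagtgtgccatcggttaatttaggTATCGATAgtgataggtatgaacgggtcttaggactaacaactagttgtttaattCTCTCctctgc
PlexB: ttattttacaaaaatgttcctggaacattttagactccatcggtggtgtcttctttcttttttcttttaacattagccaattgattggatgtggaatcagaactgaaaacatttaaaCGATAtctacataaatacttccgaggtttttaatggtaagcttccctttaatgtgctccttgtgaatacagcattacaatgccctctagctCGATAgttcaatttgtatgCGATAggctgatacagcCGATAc
Ephrin: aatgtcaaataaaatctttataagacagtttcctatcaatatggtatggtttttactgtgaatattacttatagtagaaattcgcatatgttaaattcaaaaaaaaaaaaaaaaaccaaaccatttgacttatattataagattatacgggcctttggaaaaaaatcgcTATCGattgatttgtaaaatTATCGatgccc
toy: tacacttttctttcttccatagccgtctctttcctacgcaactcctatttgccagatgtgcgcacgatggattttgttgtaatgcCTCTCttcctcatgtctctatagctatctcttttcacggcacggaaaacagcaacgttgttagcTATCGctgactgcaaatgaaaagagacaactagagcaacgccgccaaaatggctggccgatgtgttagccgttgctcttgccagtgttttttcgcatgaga
zfh2: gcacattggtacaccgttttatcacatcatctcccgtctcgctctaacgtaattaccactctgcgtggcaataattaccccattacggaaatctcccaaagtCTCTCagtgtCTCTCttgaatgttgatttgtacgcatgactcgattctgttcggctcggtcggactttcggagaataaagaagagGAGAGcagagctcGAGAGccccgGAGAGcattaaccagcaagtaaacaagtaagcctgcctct
sv: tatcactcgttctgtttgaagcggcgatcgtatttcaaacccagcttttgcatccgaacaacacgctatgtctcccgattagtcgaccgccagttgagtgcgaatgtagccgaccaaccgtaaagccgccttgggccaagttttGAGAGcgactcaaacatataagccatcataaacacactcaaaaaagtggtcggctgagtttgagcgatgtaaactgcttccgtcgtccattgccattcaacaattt

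Most start sites of the unbound genes were poorer in A and T than those of the bound genes. In the 250 bp upstream of the TSS, A and T made up 74.0% of the bases at Eph, 72.4% at Ephrin, 66.8% at PlexA and 64.4% at PlexB. The 4 start sites of pan had 64.4% to 70.0%, though 3 of them had no summit within 500 bp. The windows of toy (54.0%), zfh2 (52.4%) and sv (52.8% and 60.4%) were all lower than any of these, while the 3 start sites of ey spanned 43.2% to 67.6%. The median over all 19607 protein-coding start sites was 61.6%, with 64.0% for genes with an IDR summit at a promoter and 60.0% for the rest. No median over the start sites of chromosome 4 alone was taken, and the part of base composition in the peaks was not tested.

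**Figure D1:**
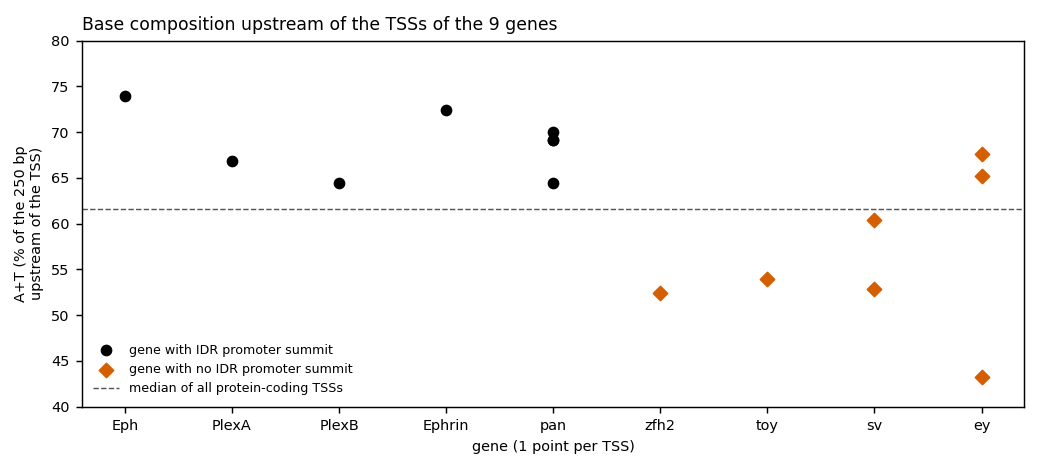
A and T content (%, vertical axis) of the 250 bp upstream of each TSS of the 9 genes (horizontal axis, 1 point per TSS). Circles are TSSs of genes with an IDR summit at a promoter, diamonds those of genes without, and the dashed line is the median of all protein-coding TSSs, 61.6%. The 8 circles lie between 64.4% and 74.0%, and 5 of the 7 diamonds lie below the dashed line.

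CGATA on either strand was in 6 of the 8 upstream windows of the bound genes and in 2 of the 7 of the others, against 41.0% of all 19607 windows of this length, 51.3% of those of genes with an IDR summit at a promoter and 35.4% of those of genes without. Of the 8 windows, 3 belong to pan start sites that had no summit within 500 bp themselves. PlexB had 4 copies, pan's first TSS 3, and Eph none. TATCGATA was in 1 of the 15 windows, that of PlexA, where it begins 66 bp upstream of the TSS; its share of all windows was 6.91%. GAGAG was in 9 of the 15 windows, with 5 copies at zfh2, and in 29.1% of all windows. Within 50 bp on each side of the strongest promoter summits, CGATA was found at 1 of the 5 bound genes (PlexB, 3 copies), TATCGATA and GAGAG at none. Of the 2883 different promoter summits of all protein-coding genes, 32.2% held CGATA within such a window, 7.35% TATCGATA and 6.38% GAGAG. Of the motifs searched for but not marked, TCAGT was at 1 of the 5 genes (Eph), against 16.3% of all. CAACAA was also at 1 (PlexA), against 8.88%, and the others were at none. These counts depend on the window: within 100 bp on each side CGATA was at 3 of the 5 genes (50.5% of all), TATCGATA at 2 (14.0%) and GAGAG at 1 (14.4%). A match describes letters, and no match says only that these letters are not in the window.

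Eph, the receptor tyrosine kinase for ephrins, had one of the strongest promoter peaks of the genome. Its summit at position 610613 lay 71 bp upstream of the only TSS, which all 6 of its transcripts use. The signal was 44.2 times the median IDR peak, with 48.5 times in replicate 2 and 34.6 times in replicate 3, and it ranked 17th of 5048. On chromosome 4 it was number 4 of the 62 bound genes. The peak interval, chr4:606739-612478, was 5740 bp wide and held 5 summits. A second summit lay 138 bp inside the gene, in the 5' UTR, at 9.26 times the median (4.43 and 8.39 in replicates 2 and 3). The other 3 lay toward onecut, a homeobox gene on the opposite strand, the strongest of them 42 bp from the TSS of onecut at 3.16 times the median (2.75 and 2.87). Downstream of Eph, a summit at 1.53 times the median lay 22 bp from the TSS of maverick (mav), which encodes a TGF-beta family ligand.

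PlexA, a semaphorin receptor, was level with Eph. Its summit at position 1027254, 153 bp upstream of the TSS shared by its 4 transcripts, had 44.1 times the median signal, with 50.5 times in replicate 2 and 33.8 times in replicate 3, and ranked 18th. Eph and PlexA cannot be put in order: PlexA was higher in replicate 2 by 0.06 on the log2 scale and Eph in replicate 3 by 0.04, where the log2 difference between replicates had an SD of 0.61 over 4916 IDR peaks. The PlexA interval, chr4:1025667-1033567, was 7901 bp wide, the widest at any of the 9 genes, and ran upstream across the start sites of other genes. Those starts had weaker summits of their own: 10.95 times the median at CG11076 (12.8 and 8.54 in replicates 2 and 3) and 7.50 times at ATPsynbeta, which encodes a subunit of the mitochondrial ATP synthase (8.50 and 6.82). A summit at Mpv17 had 0.845 times.

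PlexB, the other plexin, had a summit 51 bp upstream of its TSS, at position 43829. The signal was 29.4 times the median, 37.1 times in replicate 2 and 20.5 times in replicate 3, and the rank was 71st. PlexB was below PlexA in both replicates, by 0.45 and 0.72 on the log2 scale, a gap about as large as the spread between replicates. Its interval, chr4:41773-47897, covered 6125 bp and 7 summits. One of these, 1210 bp inside the gene at 1.76 times the median (1.47 and 1.71), was the only IDR summit in an intron of the 9 genes outside the promoter windows, and lay 206 bp from the start of an antisense RNA gene, asRNA:CR45124. Upstream, a summit of 6.49 times the median (8.03 and 4.72) lay 96 bp from the start of lncRNA:CR44440.

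Ephrin, the ligand of Eph, had a weaker peak that the replicates placed differently. The IDR summit, at position 571937, lay 182 bp inside the gene in the 5' UTR, at 7.42 times the median and rank 255. The strongest summit of replicate 2 within 250 bp of it was 7 bp inside the gene at 4.64 times, and that of replicate 3 was 204 bp inside at 8.63 times. Replicate 3 was thus above replicate 2 here, by 0.90 on the log2 scale, whereas at the other 4 bound genes it was below, by 0.33 to 0.85. Restricted to 100 bp of the IDR summit, the Ephrin difference was 1.93. With the strongest replicate peak that overlaps the IDR interval in place of the nearby summit, its sign turned, to -0.82, as at the other 4 genes, and the peak taken is then the one at ND-49 described next. ND-49, which encodes a subunit of mitochondrial complex I on the opposite strand, has 2 start sites, at positions 571554, which is 201 bp from the Ephrin TSS, and 570790. The strongest summit of the 3968-bp interval shared by both genes lay 71 bp from the start at 570790 and had 20.4 times the median signal (25.6 and 14.5 in replicates 2 and 3). Ephrin stood below PlexB by 3.00 and 1.25 on the log2 scale in replicates 2 and 3.

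pan, the Wingless effector, was the only bound transcription factor gene, and only at an internal start. The summit at position 89939 lay 416 bp upstream of the TSS of 1 of its 9 transcripts, in an intron of longer ones. It was a narrow peak, chr4:89698-90204 (507 bp), of 1.39 times the median, with 1.45 times in replicate 2 and 1.15 times in replicate 3, and ranked 1619th. On chromosome 4 it was 53rd of 62 bound genes. The first 3 start sites of pan, used by 8 transcripts, had no summit within 500 bp, although all 3 lay inside an IDR interval of 4996 bp. The summit that leads that interval was 134 bp from the start of RpS3A, a ribosomal protein gene on the opposite strand, at 32.7 times the median (39.7 and 23.6). Between the genes, 772 bp before the first pan TSS, lay a summit of 4.55 times the median (3.77 and 4.32). A summit 570 bp before it, at 1.49 times (0.736 and 1.37), was the nearest.

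ey had the strongest peak of any transcription factor gene whose nearest start was its own, but it lay outside the promoter window. Its summit at position 696943 lay 746 bp upstream of the first TSS, used by 1 of its 4 transcripts. It had 15.1 times the median signal, 15.8 in replicate 2 and 12.2 in replicate 3, and rank 140, above the promoter peaks of Ephrin and pan. A weaker summit of the same interval lay 507 bp upstream, just outside the window, at 1.92 times the median (2.54 and 3.10). Just inside the window were the pan summit described above, at 416 bp, and a second Ephrin summit at 392 bp, at 2.58 times the median. The interval, chr4:693743-698003, reached over the first TSS of ey. On its other side were summits 707 bp and 499 bp from the start of myo, the gene of the TGF-beta family ligand myoglianin, at 5.55 and 3.18 times the median. The 2 internal start sites of ey, used by its other 3 transcripts, were 7469 bp and 10247 bp from the nearest IDR summit.

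The bases around 2 summits are shown next, where those above were upstream of start sites. The ey summit lies outside the promoter windows and the pan summit in an intron. Both are 101 bp from the RefSeq genome sequence on the plus strand, centred on the summit, at chr4:696893-696993 for ey and chr4:89889-89989 for pan, with the same motifs in capitals.
ey: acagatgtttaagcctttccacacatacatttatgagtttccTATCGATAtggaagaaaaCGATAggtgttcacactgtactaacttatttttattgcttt
pan: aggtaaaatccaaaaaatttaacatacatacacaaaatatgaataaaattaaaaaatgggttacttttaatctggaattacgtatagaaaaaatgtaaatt

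The ey window holds TATCGATA, which begins 8 bp before the summit, and another CGATA that begins 10 bp after it. The pan window holds none of the marked motifs. A and T make up 80.2% of the pan window and 67.3% of the ey window, against a median of 67.3% over the 2883 promoter summits.

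toy, zfh2 and sv had little in the IDR list. toy had no IDR summit anywhere in the range, and the nearest to its TSS was 14917 bp away. zfh2 had 1, at position 497897, 3913 bp upstream of the TSS, which had 1.16 times the median signal but differed between replicates, 0.449 times in replicate 2 and 1.33 times in replicate 3. sv had 2: a summit in its 3' UTR at 1.15 times the median (0.722 and 1.21), and one 3935 bp upstream at 1.45 times (0.860 and 1.50). The upstream summit lay 67 bp from the start of Actbeta, the gene of an activin-type ligand, which was the nearer gene.

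**Figure D2:**
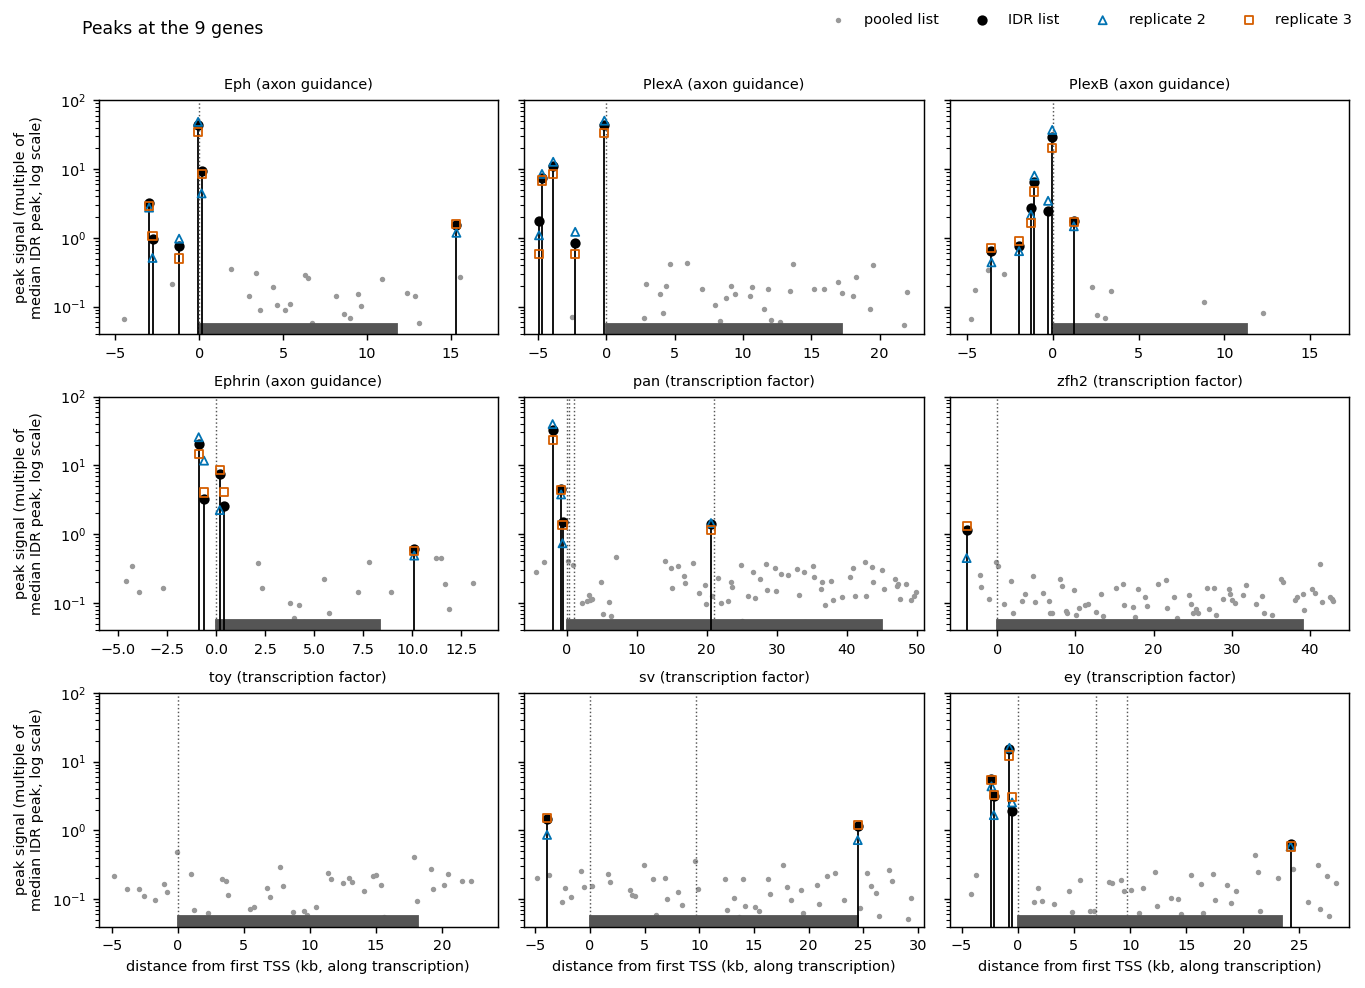
Peaks at the 9 genes by distance from the first TSS (kb along the direction of transcription, horizontal axis) and strength (multiple of the median IDR peak, log axis). Black stems and circles are IDR summits, open triangles and squares the strongest summits of replicates 2 and 3 within 100 bp of them, grey points all pooled-list summits, dark bars the genes and dotted lines their TSSs. Eph, PlexA and PlexB have their strongest summit at the TSS, at 44.2, 44.1 and 29.4 times, whereas toy has grey points only.

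Below the IDR threshold, all 9 genes had some peak at a start site. In the relaxed pooled list 9 of 9 had a summit within 500 bp of a TSS, but so did 97.2% of the other chromosome 4 genes, and 46.3% of all protein-coding genes. toy had 0.486 times the median IDR peak, 101 bp upstream of its TSS, with 0.431 times in replicate 2 and 0.453 times in replicate 3, summits that lay within 6 bp of the pooled one. This was close to the weakest IDR peak of the genome, at 0.528 times. zfh2 had 0.397 times in the pooled list, 0.164 in replicate 2 and 0.521 in replicate 3, and sv 0.363 times, 0.200 and 0.413. ey had 0.135 times in the pooled list, at its last TSS, 0.234 in replicate 2 at another position of that promoter, and 0.164 in replicate 3. The step from pan down to toy was 1.75 on the log2 scale in replicate 2 and 1.35 in replicate 3. Among toy, zfh2 and sv the place of zfh2 changed, from lowest in replicate 2 to highest in replicate 3. toy was above sv in both replicates, but by little in replicate 3, so these genes are not put in order.

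**Figure D3:**
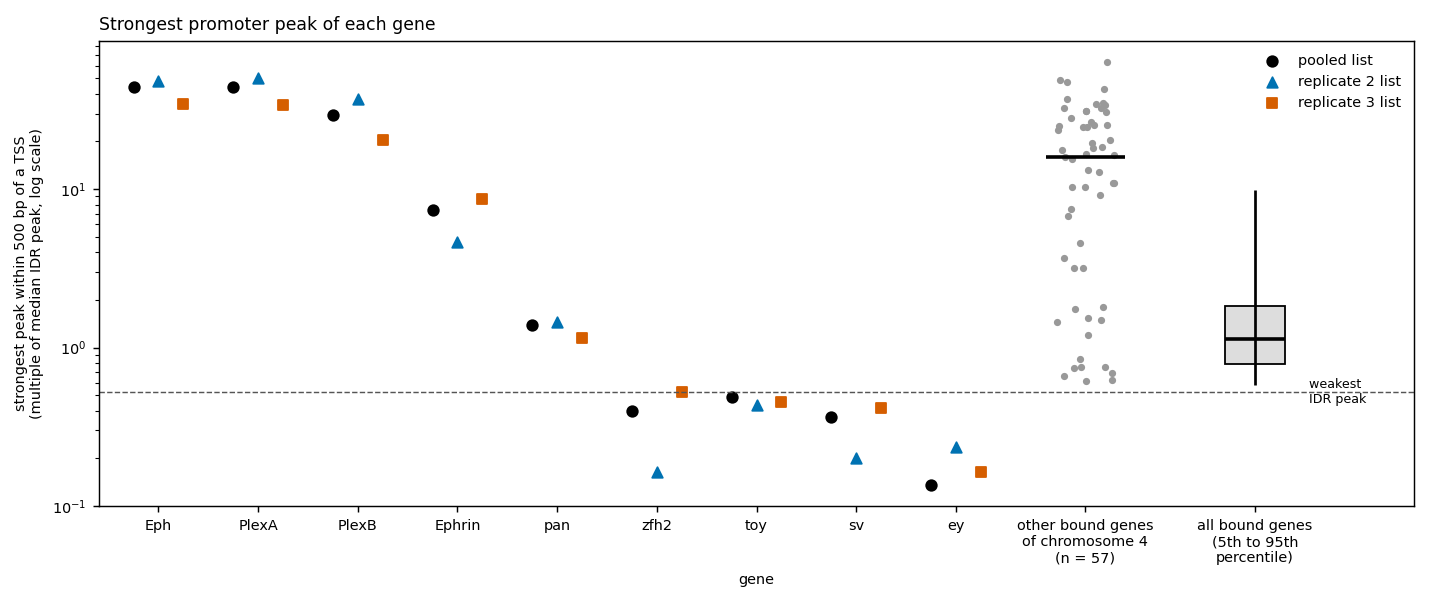
Strongest peak within 500 bp of a TSS (multiple of the median IDR peak, log axis) for each of the 9 genes in the pooled list (circles), replicate 2 (triangles) and replicate 3 (squares), beside the IDR values of the other 57 bound genes of chromosome 4 (grey points, bar at the median of 15.9 times) and of all bound genes (box from the lower to the upper quartile, bar at the median of 1.13 times, line between the 5th and 95th percentiles). Eph, PlexA and PlexB lie above both medians in every list, and zfh2, toy, sv and ey lie below the dashed line of the weakest IDR peak, 0.528 times.

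Beside their chromosome, the bound members were split. The median strength of the 4 axon guidance genes was 36.8 times the median IDR peak (42.8 in replicate 2 and 27.1 in replicate 3), against 15.9 times for the other 57 bound genes of chromosome 4 (18.4 and 11.5) and 1.13 times for all 4284 bound genes. The 4 axon guidance genes spanned 7.42 to 44.2 times and the other 57 genes 0.618 to 63.6 times, so the ranges overlap. Their peak intervals had a median width of 5932.5 bp, against 4535 bp at the other 57 and 447 bp at all bound genes. These widths belong to whole intervals, which often span several start sites.

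The unbound transcription factor genes are long. The 4 unbound genes ey, toy, sv and zfh2 had a median length of 24002.5 bp, against 11787 bp for the 5 bound members. The longest of all the members, however, was the bound gene pan, at 44945 bp, above zfh2 at 39065 bp. The length of toy (18198 bp), the shortest unbound member, was taken as a cutoff, which all 4 unbound members therefore pass. Of the protein-coding genes of chromosome 4 at least this long, 1 of 5 members was bound, and 11 of 14 others (78.6%). The members here are the 5 transcription factor genes, so their count repeats the one given above. Among the other 71 genes of the chromosome, the bound ones had a median length of 9242 bp and the unbound ones 9061 bp. The part of gene length in the peaks was not tested.

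Inside the genes, IDR peaks were scarce. The introns of the 5 transcription factor genes, 106.4 kb in all, had no IDR summit outside the promoter windows, whereas the other chromosome 4 genes had 48 in 464.0 kb, or 0.103 per kb, and genes of the other chromosomes 0.0160 per kb. IDR intervals covered 1.86% of the transcription factor genes and 14.6% of the axon guidance genes, against 18.7% of the other chromosome 4 genes and 1.46% of genes elsewhere. By gene, the covered share was 22.6% at Ephrin, 17.8% at PlexB, 15.2% at Eph, 8.34% at PlexA, 4.39% at pan, 2.05% at sv, 1.34% at ey and 0 at toy and zfh2. At the axon guidance genes all of it was the inner end of the interval that spans the TSS. The covered length was 2.006 kb at PlexB, 1.975 kb at pan, 1.888 kb at Ephrin, 1.795 kb at Eph and 1.435 kb at PlexA. The shares thus also depend on gene length.

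The relaxed lists gave another view of the same gene bodies. Relaxed pooled intervals covered 57.6% of the transcription factor genes and 57.5% of the axon guidance genes, nearly the 57.7% of the other chromosome 4 genes, against 8.55% elsewhere. Replicate 2 gave 50.2%, 53.5%, 57.4% and 8.61% for the same 4 sets, and replicate 3 gave 54.96%, 52.9%, 56.0% and 8.74%. PlexB was the least covered of the 9, at 33.5% in the pooled list and at 24.5% and 30.3% in replicates 2 and 3. In introns of the transcription factor genes the pooled list had 161 summits, 1.51 per kb, with a median of 0.126 times the median IDR peak, against 1.18 per kb and 0.162 times in the other chromosome 4 genes and 0.196 per kb and 0.114 times elsewhere. Coverage by relaxed peaks at these genes was thus near that of their chromosome in the pooled list. Relaxed intron intervals of each transcription factor gene had the same median width, 524 bp in the pooled list and 516 bp in each replicate. The coverage therefore largely follows the number of summits. Whether these weak peaks reflect binding or background was not tested. The strongest pooled intron summits reached 0.460 times in pan, 0.434 times in ey, 0.312 times in sv, 0.298 times in toy and 0.244 times in zfh2. The pan summit, 7059 bp into the gene, was in both replicates within 1 bp, at 0.595 and 0.347 times. The one in zfh2 had no summit of replicate 2 within 250 bp.

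**Figure D4:**
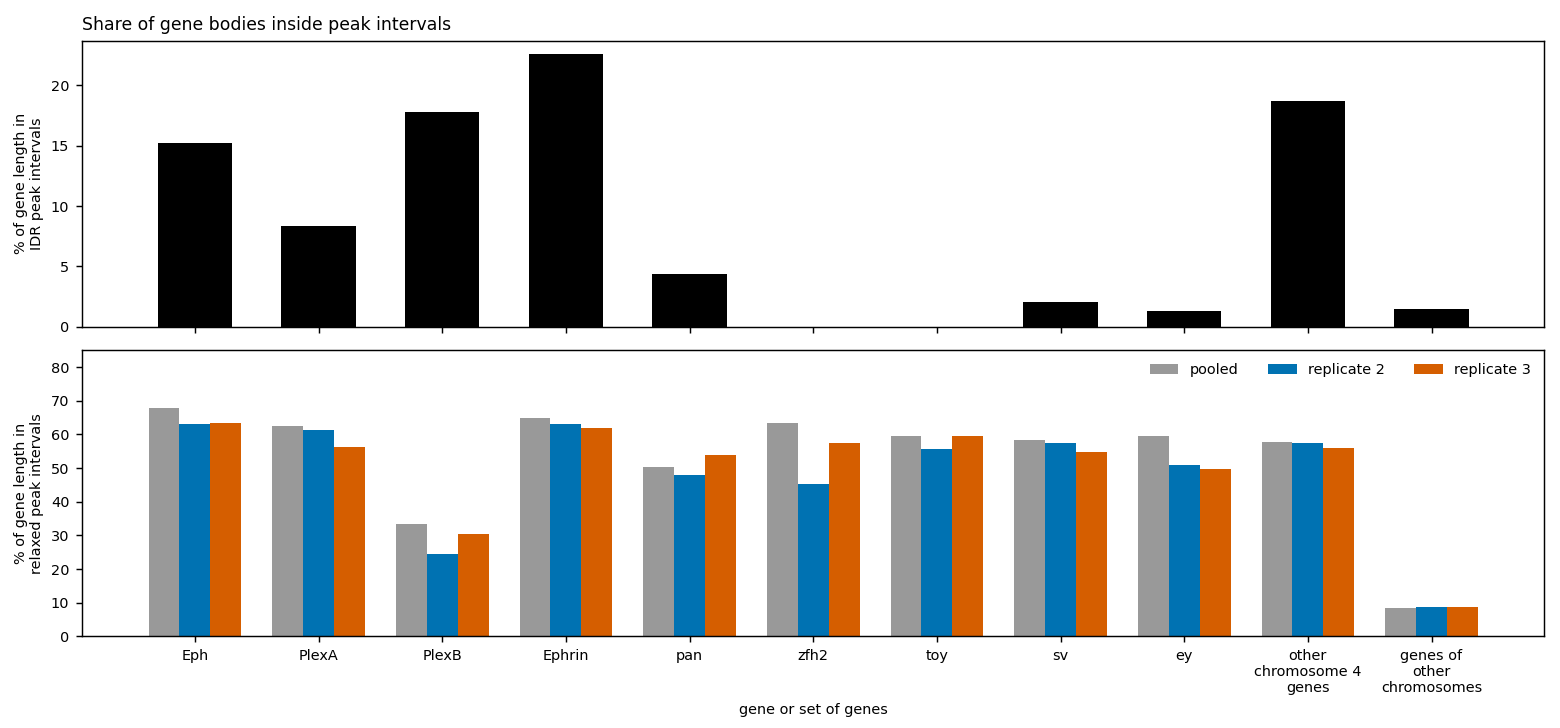
Share of gene length (%) inside IDR peak intervals (upper panel, black bars) and inside the relaxed intervals of the pooled list, replicate 2 and replicate 3 (lower panel, grey, blue and orange bars) for each of the 9 genes, then for the other chromosome 4 genes and for genes of the other chromosomes. IDR coverage runs from 0 at zfh2 and toy to 22.6% at Ephrin, while relaxed coverage in the pooled list is 33.5% at PlexB and 50.2% to 67.8% at the other 8 genes.

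Replicates put most of these summits at the same place. Of the 35 IDR summits at the 9 genes, 34 had a summit of replicate 2 within 100 bp, 34 one of replicate 3, and 33 both. All 35 had one of each replicate within 250 bp, as had 4916 of all 5048 IDR peaks. The IDR list was itself selected for reproducibility, so such matches were favoured in advance and are not particular to these genes. A replicate summit could also serve several IDR summits that lie close together. The log2 difference of replicate 3 minus replicate 2 at the strongest promoter summits, matched within 250 bp, was -0.33 at pan, -0.49 at Eph, -0.58 at PlexA, -0.85 at PlexB and 0.90 at Ephrin. Those of PlexB and Ephrin exceeded the SD of 0.61 over all matched IDR peaks and that of 0.76 over the 190 of chromosome 4.

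Related genes on all chromosomes gave a wider setting, from lists written with earlier results of these data known. The shares to read them against are the 30.7% of all protein-coding genes and the 80.3% of the other chromosome 4 genes given above. Of 14 Pax and retinal determination genes 3 were bound: Poxm at 1.78 times the median, so at 0.843 and dac at 0.531. Among the unbound were ey, eya and eyg. This list counts the members ey, toy and sv again, and off chromosome 4 it had 3 of 11 bound. Replicates 2 and 3 alone each had 2 bound. Of the 2 zinc finger homeodomain genes, zfh1 and zfh2, neither was bound, and replicate 3 alone bound 1. In the Wingless pathway 10 of 16 were bound (8 of 14 off chromosome 4), with 10 and 9 of the 16 in replicates 2 and 3. There lgs, the chromosome 4 gene of the adaptor Legless, had 12.7 times the median, sgg, which encodes the GSK3 kinase, 1.66, pan 1.39 and nkd 1.25, and arm, arr and Axn were unbound. Of 25 axon guidance genes 15 were bound (14 and 16), which is 11 of 21 off chromosome 4 beside the 4 described above. The strongest of them off the chromosome was Ptp69D, a receptor tyrosine phosphatase, at 30.6 times; drl, Dscam1 and Fas2 were unbound. Of 7 other developmental regulators of chromosome 4, 4 were bound, also in each replicate: Mitf at 4.58 times, onecut at 3.16, ci, the Hedgehog effector, at 1.75 and Actbeta at 1.45, whereas dati, fd102C and Sox102F were not.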

How the data were processed

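Binding of CG30020-GFP was profiled in 2 biological replicates of 1 group. The authors deposited 4 narrowPeak lists on dm6. Per the notes deposited with the files, peak calling used 1 control alignment for each of the replicate and pooled lists, from which the IDR list was then derived. Aligner and caller: not given in the sources used here. Signal values are used as the authors deposited them. The deposited −log10 q value is constant in the IDR list and was not used, and the deposited summit offset gave each summit.

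Summits were assigned with Ensembl 115 gene models, transposable element entries left out. Promoter means within 500 bp of any TSS. Replicate values are the strongest summit within 250 bp of the IDR summit, or within 100 bp for a secondary summit beside a stronger one. The members and gene lists were chosen with earlier results of these data known. All 9 members are named, and of each list up to 4 bound genes by strength and up to 3 unbound in alphabetical order. No test was run. Python 3.11.15, NumPy 2.4.6 and pandas 2.3.3 were used, and the assignment was tested on simulated peaks. Alternatives covered the promoter window, the flank, the list, single replicates and summit rules.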

Additional observations from a re-analysis of the deposited data

How the results depend on the processing

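With 35 IDR summits assigned to the 9 genes, 1 summit per merged interval left 13, a flank of 2 kb left 23, and all peaks of the pooled list gave 401. In that last count, pooled summits within reach of both toy and PlexA were counted at each of these genes. The median strongest promoter peak of 29.4 times corresponds to a rank percentile of 98.6. It was 15.7 times without replicate 2, where zfh2 entered the median, 39.9 times without replicate 3, and 16.7 times when divided by the chromosome 4 median. The share of the other chromosome 4 genes with an IDR summit at a promoter, 80.3%, was 57.7% with 1 summit per merged interval, 87.3% with interval overlap in place of the summit, 76.1% with a summit given to the closest TSS alone, 87.3% with a window of 1000 bp, 67.6% with 200 bp and 69.0% with the IDR peaks above the median signal. Leaving out 1 replicate gave 80.3% to 81.7%. Among the 9 genes, 200 bp dropped pan, 1000 bp and interval overlap each added ey, 1 summit per merged interval dropped Ephrin, and replicate 3 alone added zfh2. With interval overlap the peak of RpS3A counted for pan, at 32.7 times, and that of ND-49 for Ephrin, at 20.4 times, and with 1000 bp pan had 4.55 times and Ephrin again 20.4 times. The cause of the other changes was not tested. No paired analysis was possible because there is 1 group. Unknown depth and 2 replicates limit precision.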
